A study of Mus musculus with 8 samples.

Results

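The response of the apsMC706 colon cancer organoid line to a medium without EGF was measured across all genes, as the change from EGF medium (EM) to noEGF medium within this line. The comparison took the 4 libraries whose titles name apsMC706, of 8 libraries in the series. Organoids are epithelial cells grown as self-organising structures in culture. Cells of apsMC706 came from C57BL/6 mice, were labelled female, and carried knockouts of Apc, Trp53 and Smad4 made with CRISPR (APS organoids). Loss of Apc frees Wnt signalling from its brake, Trp53 encodes the damage sensor p53, and Smad4 relays signals of the TGF-beta and BMP receptors to the nucleus. Both media held B27, noggin, which binds BMP ligands, and galunisertib, which inhibits the TGF-beta receptor. The EM group (replicates 1 and 2) was grown with EGF and extracted after 3 days, and the noEGF group (replicates 1 and 2) was grown for 7 days with EGF left out from the start. Medium and days in culture therefore cannot be told apart, and every change below is a change of both. All groups carried the same knockouts and no unedited organoids were analysed here.

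EGF binds the receptor tyrosine kinase EGFR, which pairs with its relatives ERBB2 and ERBB3 and signals through RAS to the kinase ERK and through PI3K to AKT. ERK switches on transcription factors such as EGR1, FOS and MYC together with its own inhibitors, and AKT holds FOXO transcription factors out of the nucleus. In the gut epithelium, EGF is a main driver of stem cell division, and organoids of normal gut are grown with it.

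The 4 libraries held 36690444 to 38002511 counts. The 2 replicates of a group differed beyond counting noise, with a chi-square per degree of freedom of 2.67 in EM and 7.26 in noEGF, and the remaining spread was small, with a biological coefficient of variation of 2.58%. Component 1 of the log2 values separated the media and held 94.8% of the variance. The labels do not say that the replicates were separate cultures, so p-values measure only the spread between these libraries, which may be technical. Mitochondrially encoded genes took 3.68% and 3.07% of counts in EM and 4.60% and 4.13% in noEGF. Markers of colon epithelium were present in every library, with Epcam at 469 and 476 counts per 1000000 (CPM) in EM and 631 and 650 CPM in noEGF and Cdh1 at 928 and 943 CPM against 876 and 889 CPM. Of 15 immune markers, 1 had enough counts to test, and the pan-leukocyte gene Ptprc was at 0 to 0.0273 CPM. The 12 fibroblast markers summed to 16.2 to 20.3 CPM, of which Acta2 made up most. Col3a1, a fibrillar collagen, rose from 3.80 and 3.90 CPM to 7.13 and 8.58 CPM (1.03, SE 0.11), and Col1a2, Lum, Dpt and Thy1 had no counts. Of 14 endothelial, glial and muscle markers, 4 were tested, and their sum went from 10.3 and 11.36 CPM to 31.9 and 32.4 CPM, most of it von Willebrand factor (Vwf), while the endothelial receptor Kdr had no counts. In bulk RNA, fewer cells of a type and less RNA per cell cannot be told apart.

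The targeted genes were still transcribed, and since small edits can leave the RNA in place, their counts are no check of the knockouts. Apc was at 191 and 199 CPM in EM and 179 and 177 CPM in noEGF. Smad4 was at 33.7 and 34.4 CPM against 39.1 and 40.0 CPM. Trp53 was at 16.4 and 13.1 CPM against 15.4 and 15.1 CPM, with no difference past the threshold (log2 fold change 0.05, SE 0.07, edgeR quasi-likelihood test, adjusted p = 0.533).

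Most tested genes passed the threshold, many with small changes. Of 14981 genes tested with edgeR's quasi-likelihood test at an adjusted p of 0.05, 6083 were higher in noEGF (40.6% of those tested) and 5911 were lower (39.5%). Changes of at least 2-fold were found for 2009 higher genes (13.4%) and 1081 lower genes (7.22%). The large changes leaned upward, with 766 genes higher and 222 lower past a log2 fold change of 2 in either direction, and 328 higher and 103 lower past 3. In 6140 of the called genes the change was under 1.5-fold. A share of called genes in a list is therefore read against these percentages, and the median log2 fold change of a list against 0.01, the median of all tested genes. For many genes edgeR returned an adjusted p of 0, which is a value too small to be held, so the log2 fold change and its standard error (SE) are given instead.

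**Figure D1:**
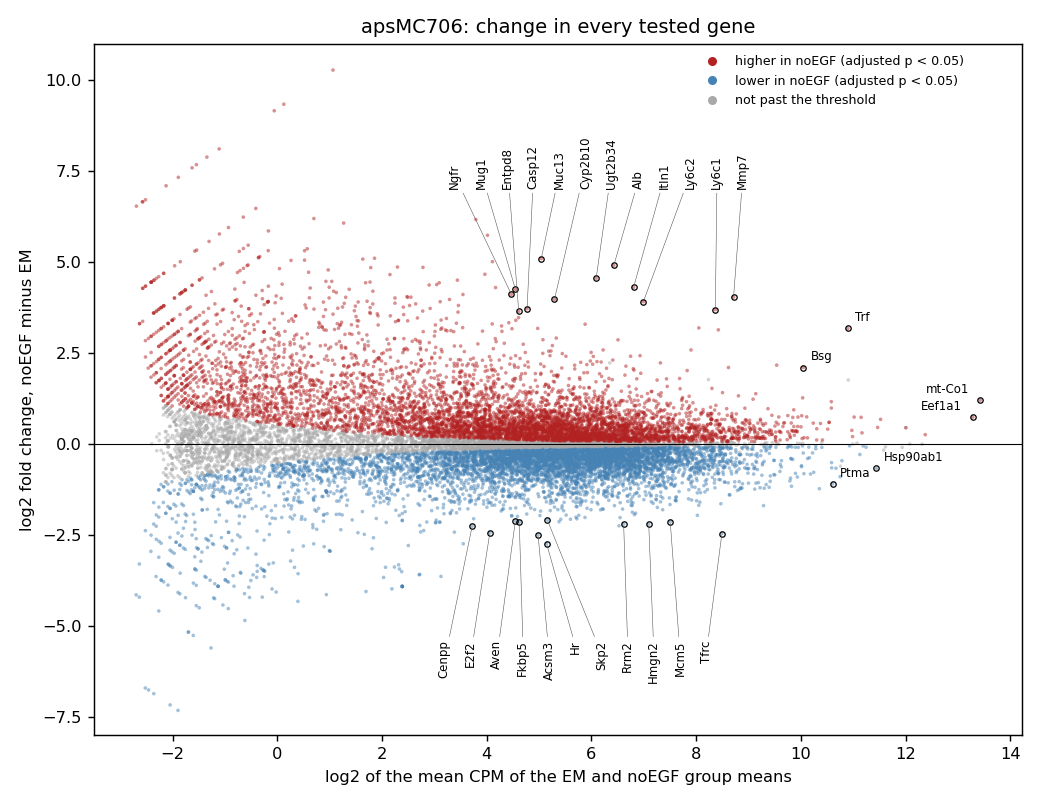
Change in every tested gene of apsMC706. The x axis is the log2 of the mean of the EM and noEGF levels in CPM, the y axis the log2 fold change (noEGF minus EM), and colour marks genes higher or lower at an adjusted p under 0.05. The 12 largest rises (Muc13 5.10 to Entpd8 3.65) and 11 of the 12 largest falls (Hr -2.74 to Skp2 -2.10) among well-expressed genes are labelled, with 6 abundant genes. Rises reach farther from 0 than falls, and genes with 0 counts in a group lie at the far left edge, where fitted values are not bounds.

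Among the 12 largest rises were the surface and secreted proteins Muc13, Mmp7 and Itln1. Muc13, a membrane mucin of the gut surface (ENSMUSG00000022824, chr16:33794037-33819934 in GRCm38), was at 2.27 and 1.45 CPM in EM and 62.8 and 65.2 CPM in noEGF (log2 fold change 5.10, SE 0.08). Mmp7, the matrix metalloproteinase that activates defensins in Paneth cells (chr9:7692090-7699585), went from 49.0 and 47.4 CPM to 774 and 811 CPM (4.04, SE 0.03). Itln1, a lectin that binds microbial sugars, went from 11.2 and 10.3 CPM to 202 and 224 CPM (4.31, SE 0.04). In all 3 genes the fitted rise was at least 16.4-fold, and the media lay far apart beside the gap between replicates.

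Genes best known from the liver were also among the 12. Alb, serum albumin (chr5:90460897-90476602), was at 5.71 and 5.35 CPM in EM and at 162 and 172 CPM in noEGF (4.91, SE 0.05). The protease inhibitor Mug1 rose 19.0-fold, from 2.51 and 2.16 CPM to 45.7 and 43.3 CPM. So did enzymes that conjugate or oxidise foreign compounds, the glucuronosyltransferase Ugt2b34 at 5.76 and 5.32 CPM in EM and 128 and 134 CPM in noEGF, and the cytochrome P450 Cyp2b10 at 4.28 and 5.10 CPM against 73.6 and 74.0 CPM. Of 28 tested genes whose symbols start with Cyp, 18 rose and 4 fell. The summed level of all 100 such genes changed little, from 695 and 683 CPM in EM to 678 and 679 CPM in noEGF. The remaining lead genes were the neurotrophin receptor Ngfr (2.56 and 2.27 CPM to 44.6 and 39.3 CPM), the nucleotidase Entpd8, the inflammatory caspase Casp12, and the surface proteins Ly6c1 and Ly6c2. Ly6c1 was at 47.2 and 47.6 CPM in EM and 628 and 598 CPM in noEGF, and Ly6c2 at 15.8 and 15.9 CPM against 244 and 233 CPM. The 2 Ly6c genes are close copies, so reads may be split between them.

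A few genes appeared from no counts at all. Reg3g, an antibacterial lectin of the gut, had 0 counts in both EM libraries and 146 and 165 counts in noEGF, at least 51.9-fold higher when each EM library is set to 3 counts. Lrg1, a secreted acute-phase glycoprotein, was at least 27.1-fold higher, and Dmbt1, a mucosal scavenger protein, at least 23.8-fold higher, on the same floor. In the other direction the largest count was 36, for AF067063 in EM, with 0 in noEGF.

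Among genes with an average log2 CPM of at least 3, the largest falls were led by Hr, a nuclear corepressor (chr14:70552212-70573548), at 60.9 and 62.1 CPM in EM and 8.88 and 9.48 CPM in noEGF (-2.74, SE 0.05). Acsm3, a mitochondrial acyl-CoA synthetase, fell 5.67-fold, and the glucocorticoid-induced chaperone Fkbp5 fell 4.45-fold. Acsm3 shares 39.7% of its exon bases with Eri2, so part of its counts may belong there. Of the other 9 lead falls, E2f2, Cenpp, Rrm2, Mcm5 and Skp2 are genes of the dividing cell. The iron genes moved apart. Tfrc, the transferrin receptor that takes up iron (chr16:32608920-32632794), was at 607 and 612 CPM in EM and 114 and 107 CPM in noEGF (-2.46, SE 0.03). Trf, transferrin itself, went from 381 and 378 CPM to 3348 and 3528 CPM (3.18, SE 0.02), and 63.5% of its exon bases overlap the predicted gene Gm20425.

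By share of the library, Trf was the gene with the third largest gain, after mt-Co1 and Eef1a1. The translation elongation factor Eef1a1 went from 7418 and 7561 CPM to 12462 and 12487 CPM, and Eef2 from 3442 and 3522 CPM to 4722 and 4765 CPM. Bsg (basigin), a partner of lactate transporters, went from 408 and 392 CPM to 1679.5 and 1755 CPM (2.10, SE 0.02). Among the largest losses of share were the chaperone Hsp90ab1 (3388 and 3466 CPM to 2144 and 2151 CPM), the nucleolar protein Ncl, the chromatin protein Ptma and the desaturase Scd2. The mitochondrially encoded gene mt-Co1 went from 7290.4 and 6046 CPM to 16402 and 14324 CPM, and only it and mt-Co3 passed the threshold among 13 tested genes of the mitochondrial genome (adjusted p = 0.0247 for mt-Co1 and 0.0493 for mt-Co3, edgeR). Both calls were lost when EM replicate 2 was left out (adjusted p = 0.103 and 0.119) or when noEGF replicate 1 was left out (0.160 and 0.246). The call for mt-Co3 was also lost with DESeq2 size factors (0.0505) and with no filter on low counts (0.0711). With limma-voom, or without robust moderation, 5 genes of the list were lower in place of 0. Without EM replicate 1 the list had 8 genes higher and 2 lower, and without noEGF replicate 2 it had 5 higher and 3 lower.

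Transcripts of EGF receptors, their ligands and ERK target genes were mostly higher in noEGF. Among receptors, Egfr (chr11:16752203-16918158) was at 14.6 and 15.2 CPM in EM and 32.3 and 34.1 CPM in noEGF (1.16, SE 0.06). Erbb3, which binds neuregulin and signals to PI3K, was at 81.6 and 82.0 CPM against 194 and 192 CPM (1.24, SE 0.03). Erbb2, the partner without a ligand, was at 64.7 and 60.7 CPM against 64.8 and 67.2 CPM and did not pass (0.07, SE 0.04, adjusted p = 0.0726), although it passed without EM replicate 1 (0.11, adjusted p = 0.0279) and without noEGF replicate 1 (0.10, adjusted p = 0.0237). It also passed with upper-quartile factors (0.16, adjusted p = 4.0e-05) and with a filter of 1 CPM (0.09, adjusted p = 0.0236). Erbb4 had no counts. Per kilobase of exon, the order in EM was Erbb3 (13.6 RPKM), Erbb2 (12.04 RPKM) and Egfr (1.31 RPKM), and in noEGF Erbb3 (32.0 RPKM), Erbb2 (12.7 RPKM) and Egfr (2.93 RPKM).

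Of 6 tested ligands that bind EGFR, 4 rose. Hbegf was at 14.3 and 15.6 CPM in EM and 38.97 and 38.2 CPM in noEGF (1.37, SE 0.06). Tgfa was at 19.7 and 20.4 CPM against 32.6 and 31.2 CPM (0.67, SE 0.05). Areg and Egf rose from below 3 CPM in both EM libraries, Egf from 0.660 and 0.737 CPM to 2.27 and 1.91 CPM. Btc was at 44.6 and 46.8 CPM against 47.1 and 46.2 CPM, and did not pass (0.03, adjusted p = 0.478, edgeR), although it passed with upper-quartile factors (0.12, adjusted p = 0.00402), which rescale the libraries by a quantile of the counts. Epgn, at 0.106 and 0.437 CPM against 0.191 and 0.291 CPM, did not pass (adjusted p = 0.782). Ereg had no counts. Among regulators, the ERBB-binding protein Lrig3 rose 2.69-fold, while the sheddase Adam17, which frees these ligands from the membrane, fell 1.34-fold and the ubiquitin ligase Cbl fell 1.20-fold. The call for Cbl was lost with all 8 libraries (adjusted p = 0.0924, edgeR). Of 22 genes in the EGF family list, 18 were tested, 12 rose and 2 fell (median 0.68).

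Of 35 ERK target and feedback genes, 33 were tested, 27 rose, 5 fell and 1 did not pass (median 0.87). The immediate early gene Egr1 was at 17.1 CPM in both EM libraries and at 64.1 and 63.2 CPM in noEGF (1.89, SE 0.05), and Fos was at 8.61 and 8.35 CPM against 28.8 and 29.5 CPM (1.78, SE 0.07). Myc, which drives growth genes, was at 191 and 193 CPM against 370 and 369 CPM (0.95, SE 0.03). Dusp6, the phosphatase that switches ERK off, was at 144 CPM in both EM libraries and at 217 and 213 CPM in noEGF (0.58, SE 0.03). The cyclin Ccnd1 rose 1.31-fold, and Pdgfb went from 0.476 and 0.737 CPM to 6.97 and 6.99 CPM. The count that fell was 3 with upper-quartile factors and 3 without EM replicate 2. The 5 that fell did so by small amounts. They were the PEA3 factors Etv4 (62.2 and 64.5 CPM to 55.7 and 56.6 CPM) and Etv5 (-0.13, SE 0.04), the feedback inhibitors Spred2 (-0.24, SE 0.04) and Spry4 (-0.18, SE 0.07), and Fosl1 (-0.48, SE 0.15). The call for Spry4 (adjusted p = 0.0187) was lost without EM replicate 2 (0.0819) and without noEGF replicate 1 (0.538), and that for Fosl1 (adjusted p = 0.00249) without EM replicate 2 (0.0697) and with the DESeq2 Wald test (0.0649). With upper-quartile factors the calls for Etv5 (adjusted p = 0.313) and Spry4 (0.242) were lost, as they were with all 8 libraries (0.0502 and 0.117), and Spry4 was lost with the DESeq2 Wald test (0.158). None of the 5 that fell passed a test against a fold of 1.5.

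**Figure D2:**
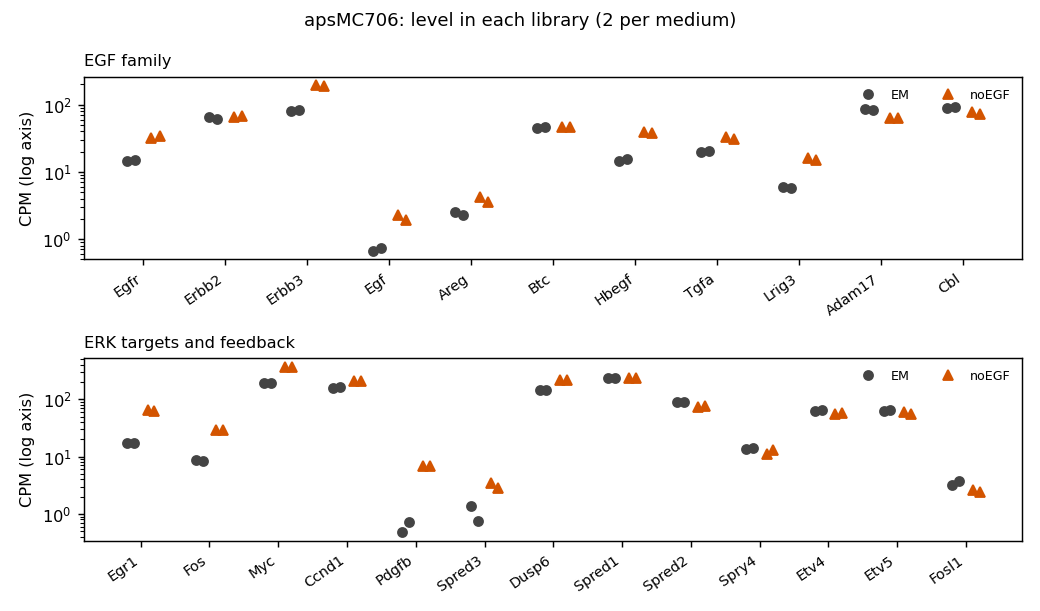
Levels of EGF family genes (upper panel) and of ERK targets and feedback genes (lower panel) in the 4 libraries of apsMC706, in CPM on a log axis. Circles are the 2 EM libraries and triangles the 2 noEGF libraries. Egfr, Erbb3, Hbegf, Egr1, Fos and Myc lie apart with noEGF above EM, whereas Etv4, Etv5, Spred2 and Spry4 lie slightly lower in noEGF.

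Genes of the dividing cell fell as a block. All 41 genes of the S phase list were tested and all 41 fell (median -1.47), 36 of them at least 2-fold. All 40 genes of the G2 and M phase list fell (median -1.24), 34 at least 2-fold. Both medians were negative with DESeq2 size factors and with upper-quartile factors. Rrm2, a subunit of the enzyme that makes deoxynucleotides, was at 159 and 163 CPM in EM and 34.9 and 35.05 CPM in noEGF (-2.20, SE 0.04). Mcm5, of the replicative helicase, was at 293 and 300 CPM against 68.0 and 66.3 CPM, and the primase Prim1 fell 4.04-fold. Mki67, the usual marker of cycling cells, was at 949 and 962 CPM against 294 and 296 CPM (-1.70, SE 0.03). Mybl2, which activates mitotic genes, fell 4.07-fold, and the survivin gene Birc5 fell 3.51-fold. Skp2, the ubiquitin ligase subunit that destroys the CDK inhibitor p27, was at 57.8 and 58.0 CPM against 14.2 and 12.9 CPM.

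The inhibitors of the cycle did not move as a block. Of 21 tested, 12 rose and 7 fell (median 0.34). The stress-induced growth arrest gene Gadd45a went from 5.07 and 5.27 CPM to 33.7 and 36.8 CPM (2.77, SE 0.07), and the antiproliferative gene Btg1 rose 2.09-fold. The CDK inhibitors Cdkn1a (24.9 and 27.9 CPM to 20.2 and 20.1 CPM), Cdkn2a (117 and 120 CPM to 90.9 and 95.0 CPM) and Cdkn2c (20.1 and 22.4 CPM to 7.51 and 7.50 CPM) fell.

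The promoters of these genes carry short motifs that were counted in windows from 250 bases before to 50 bases after the gene start (RefSeq, GRCm38.p6). A window could be read for 33 of the 40 G2 and M phase genes and 33 of the 41 S phase genes. The cell cycle homology region, searched as TTTGAA on both strands, was present in 24 of the 33 G2 and M phase windows (72.7%), against 12.4% of 10318 windows of tested genes and 18.1% of all 27025 windows. The CCAAT box, searched as ATTGG on both strands, was present in 75.8% of them, against 39.5% and 37.9%. An E2F motif, searched as TTTCCCGC or TTTGGCGC on both strands, was present in 30.3% of the S phase windows, against 3.01% and 1.63%. Among all genes that fell at least 2-fold, 23.6% of 666 windows held the cell cycle homology region, and among all that rose at least 2-fold, 13.1% of 1482. Stretches before the start of Mki67 (chr7:135716461-135716550, minus strand) and of the mitotic kinesin Kif11 (chr19:37376292-37376381, plus strand) are shown because each holds both motifs. Capitals mark the pair of matches that lie closest together, and other matches in the stretch are in lower case.
Mki67: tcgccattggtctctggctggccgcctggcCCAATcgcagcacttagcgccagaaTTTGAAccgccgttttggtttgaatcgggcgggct
Kif11: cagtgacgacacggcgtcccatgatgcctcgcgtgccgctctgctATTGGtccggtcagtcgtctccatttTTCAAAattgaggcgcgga
A match is a description of the letters and not evidence that a factor was bound.

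Protein synthesis genes split in 2 directions. Of 48 cytosolic ribosomal protein genes, 39 rose and 3 fell, by small amounts (median 0.29), with Rps27 at 244 and 240 CPM in EM and 387 and 391 CPM in noEGF and Rpl3 at 1072 and 1074 CPM against 1593 and 1576 CPM. Rps2 went the other way, from 456 and 464 CPM to 268 and 272 CPM. Ribosomal protein genes have many near-identical pseudogenes, so their counts are uncertain. In contrast, 37 of 40 genes that build ribosomes fell and 2 rose (median -0.52), and 1 rose when EM replicate 1, EM replicate 2 or noEGF replicate 2 was left out. They included the processome scaffold Utp20 (149 and 150 CPM to 56.4 and 54.8 CPM), the export factor Rrp12 (57.2 and 63.3 CPM to 24.3 and 24.98 CPM) and the methyltransferase Fbl (237 CPM in both EM libraries to 115 and 116 CPM). The opposite signs of the 2 list medians held with DESeq2 size factors (0.28 and -0.52) and with upper-quartile factors (0.38 and -0.43). Mitochondrial ribosomal proteins fell, with 35 of 48 Mrpl genes and 24 of 29 Mrps genes lower. Of 47 tested genes whose symbols start with Psm, most of them proteasome subunits, 41 fell and 4 rose (median -0.59).

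Genes of lipid synthesis mostly fell. Of 25 genes of cholesterol synthesis and uptake, 23 fell and 2 rose (median -0.54). The isomerase Idi1 was at 585 and 568 CPM in EM and 223 and 214 CPM in noEGF, and the mevalonate kinase Mvk fell 2.59-fold. Insig1, which retains the sterol sensor in the endoplasmic reticulum, was among the 2 that rose (0.22, SE 0.02). In fatty acid synthesis 14 of 18 fell, among them the elongase Elovl6 (115 and 117 CPM to 34.5 and 32.5 CPM), Acaca (-1.05, SE 0.03) and the synthase Fasn (-0.70, SE 0.02). The mitochondrial isoform of acetyl-CoA carboxylase, Acacb, whose product blocks entry of fatty acids into mitochondria, went from 1.90 and 1.23 CPM to 16.97 and 17.5 CPM. Of 25 tested genes of fatty acid oxidation, 9 rose and 10 fell, and the sign of the median depended on the scaling (-0.08, and 0.01 with upper-quartile factors, where 6 fell). The coactivator Ppargc1a was at 8.61 and 8.63 CPM against 24.1 and 25.6 CPM.
In promoters of the cholesterol list, 88.2% of 17 windows held a CCAAT box and 5.88%, a single window, held the sterol element, searched as TCACNCCAC on both strands (1.07% of tested and 1.22% of all windows). That window belongs to Hmgcs1 (log2 fold change -0.27), the synthase at the entry of the pathway. Its stretch with the element in capitals (chr13:119690173-119690262, plus strand) is shown because no other window of the list held the element.
Hmgcs1: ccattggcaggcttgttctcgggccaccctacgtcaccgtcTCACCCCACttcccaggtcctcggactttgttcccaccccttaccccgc

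Respiration and oxygen-regulated genes moved apart. Of 40 nuclear-encoded respiratory chain subunits, 32 fell and 4 rose (median -0.31), with Atp5g1 at 120 CPM in both EM libraries and 57.3 and 56.9 CPM in noEGF and Ndufa6 going the other way, from 47.7 and 47.3 CPM to 87.3 and 90.9 CPM. Of 30 glycolysis and hypoxia genes, 20 rose and 8 fell (median 0.75), 14 rising at least 2-fold. Hypoxia-induced genes led the rise. The collagen prolyl hydroxylases P4ha1 (12.9 and 13.5 CPM to 71.7 and 76.1 CPM) and P4ha2 (20.9 and 20.7 CPM to 108 and 112 CPM), the angiogenic factor Vegfa (29.6 and 30.2 CPM to 126 and 127 CPM) and the lactate exporter Slc16a3 (0.370 and 0.355 CPM to 6.78 and 6.68 CPM) all lay apart between the media. The glucose transporter Slc2a1 (91.4 and 92.4 CPM to 61.9 and 60.4 CPM), hexokinase Hk2 (-0.36, SE 0.04) and enolase Eno1 (-0.40, SE 0.02), also targets of the hypoxia factor, fell.

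Genes of the FOXO list rose. The list held 30 genes induced by FOXO factors or repressed by insulin and growth factor signals. Of these, 25 were tested, 23 rose and 1 fell (median 0.97). Txnip, which limits glucose uptake (chr3:96557957-96561883), was at 51.1 and 53.6 CPM in EM and 471 and 486 CPM in noEGF (3.19, SE 0.03). The ubiquitin ligase Fbxo32 (atrogin) was at 3.33 and 3.66 CPM against 19.3 and 21.2 CPM, the Txnip relative Arrdc4 at 7.87 and 8.44 CPM against 40.6 and 42.5 CPM, and Klhl24 at 57.0 and 55.2 CPM against 265 and 261 CPM. Cat (catalase) was the member that fell, from 105 and 101 CPM to 48.8 CPM in both noEGF libraries. Of 19 readable windows, 3 (15.8%) held the FOXO motif, searched as TGTTTAC on both strands, against 2.54% of tested and 3.55% of all windows. Stretches of Txnip (chr3:96557794-96557883, plus strand) and of Bcl2l11 (chr2:128125788-128125877, plus strand; log2 fold change 0.99), which encodes the death protein BIM, are shown with the motif in capitals.
Txnip: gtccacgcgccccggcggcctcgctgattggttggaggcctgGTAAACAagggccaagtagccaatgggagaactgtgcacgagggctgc
Bcl2l11: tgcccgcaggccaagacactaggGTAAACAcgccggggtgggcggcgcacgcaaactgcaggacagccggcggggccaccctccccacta
Of 38 tested lysosome and autophagy genes, 27 rose and 7 fell (median 0.50), and 4 fell without noEGF replicate 1 or with upper-quartile factors. The sialidase Neu1 (24.9 and 23.3 CPM to 84.9 and 85.8 CPM) and the galactosidase Glb1 (39.4 and 37.2 CPM to 128 and 133 CPM) rose, whereas Tfeb, the factor that drives lysosomal genes, fell 1.39-fold.

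**Figure D3:**
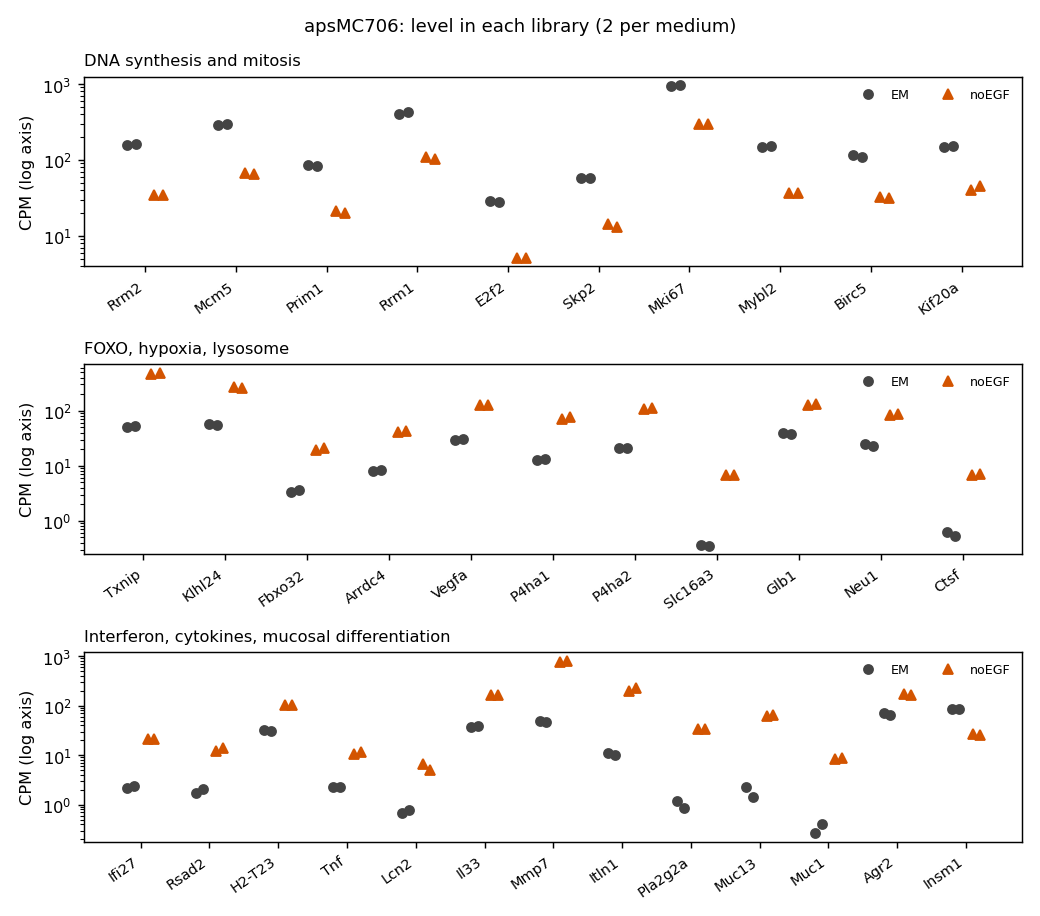
Levels of genes of cell division (upper panel), of FOXO, hypoxia and lysosome lists (middle panel) and of interferon, cytokine and differentiation lists (lower panel) in the 4 libraries of apsMC706, in CPM on a log axis. Circles are EM and triangles noEGF. The division genes shown are all lower in noEGF, those of the middle panel all higher, and in the lower panel Insm1 alone is lower.

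Stress pathways of the cell gave mixed results. In the unfolded protein response list 18 of 25 rose and 6 fell (median 0.29). The factor Xbp1 was at 107 CPM in both EM libraries and 309 and 305 CPM in noEGF, the chaperone Hspa5 at 646 and 633 CPM against 1243.5 and 1207 CPM, and the sensor Atf6 at 57.9 and 58.6 CPM against 138 and 129 CPM. The ATF4 list split, with 17 of 31 higher and 12 lower (median 0.08). Its stress regulators Nupr1 (34.2 and 33.8 CPM to 181 CPM in both noEGF libraries) and Atf3 (5.73 and 5.65 CPM to 28.2 and 28.0 CPM) and the lipoprotein receptor Vldlr (20.8 and 23.3 CPM to 162 and 158 CPM) rose. Enzymes of serine synthesis and amino acid import, Psat1 (378 and 391 CPM to 221 and 212 CPM), Shmt2 (-0.68, SE 0.03) and Slc7a5 (-0.83, SE 0.02), fell.

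Of 26 tested p53 targets, 11 rose and 11 fell (median 0.03). Gdf15 went from 3.41 and 3.96 CPM to 26.0 and 23.6 CPM and the death gene Bbc3 (PUMA) from 7.93 and 7.43 CPM to 24.0 and 23.2 CPM, while Bax (43.5 and 41.5 CPM to 23.3 and 23.6 CPM) and the cyclin Ccng1 fell. Among cell death genes, 15 of 28 rose and 8 fell (median 0.23). The inflammatory caspases Casp12 (3.80 and 3.90 CPM to 49.9 and 51.6 CPM), Casp4 (9.62 and 10.7 CPM to 67.9 and 64.5 CPM) and Casp1 (2.75 and 2.84 CPM to 13.4 and 15.5 CPM) and the BH3 protein Bmf rose. Mlkl, which executes necroptosis, fell 2.58-fold, and Gsdma, a pore-forming gasdermin, went from 16.3 and 16.0 CPM to 1.23 and 1.35 CPM.

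Genes of innate immunity rose. Of 45 interferon-induced genes, 40 were tested, 34 rose and 2 fell (median 1.43), 25 rising at least 2-fold against 13.4% of all tested genes. Ifi27 was at 2.14 and 2.43 CPM in EM and 21.2 and 20.8 CPM in noEGF, and the antiviral enzyme Rsad2 at 1.74 and 2.05 CPM against 11.9 and 14.2 CPM. The GTPase Irgm1 fell, from 22.3 and 22.4 CPM to 17.4 and 16.1 CPM. With all 8 libraries the call for Irgm1 was lost (adjusted p = 0.0896, edgeR), and of 45 tested interferon genes 27 rose and 0 fell. In antigen presentation 18 of 22 tested rose and 2 fell (median 0.56), with the class I gene H2-T23 at 32.9 and 30.7 CPM against 104 and 105 CPM and the peptide transporter Tap1 at 1.22 and 1.28 CPM against 3.66 and 4.08 CPM. Of 35 NF-kB and cytokine genes, 24 were tested, 22 rose and 1 fell (median 1.58). The alarmin Il33 was at 36.7 and 38.1 CPM against 164 and 166 CPM, Tnf at 2.27 and 2.24 CPM against 10.6 and 11.7 CPM, and the iron-binding Lcn2 at 0.687 and 0.764 CPM against 6.67 and 4.98 CPM, while the factor Nfkb1 fell 1.22-fold. Left without noEGF replicate 2, the interferon list had 1 lower gene, and left without EM replicate 1, the NF-kB list had 2. Beside these rises, the 15 immune markers summed to 1.48 and 1.72 CPM in EM and 8.44 and 8.32 CPM in noEGF, nearly all from Cd68, a lysosomal protein (1.14 and 1.39 CPM to 7.71 and 7.58 CPM), with Cd3g at 0 in every library.
The interferon-stimulated response element, searched as GAAANNGAA on both strands, was present in 17 of 28 readable windows of the interferon list (60.7%), against 7.00% of tested and 8.57% of all windows. Stretches of Rsad2 (chr12:26456523-26456612, minus strand) and of the chemokine Cxcl10 (chr5:92349050-92349139, minus strand; log2 fold change 2.50) are shown with the element in capitals, in reverse orientation in Rsad2.
Rsad2: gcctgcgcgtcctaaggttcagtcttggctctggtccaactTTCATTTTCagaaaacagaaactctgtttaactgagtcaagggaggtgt
Cxcl10: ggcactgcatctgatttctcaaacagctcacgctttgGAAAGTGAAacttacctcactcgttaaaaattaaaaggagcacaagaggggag

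**Figure D4:**
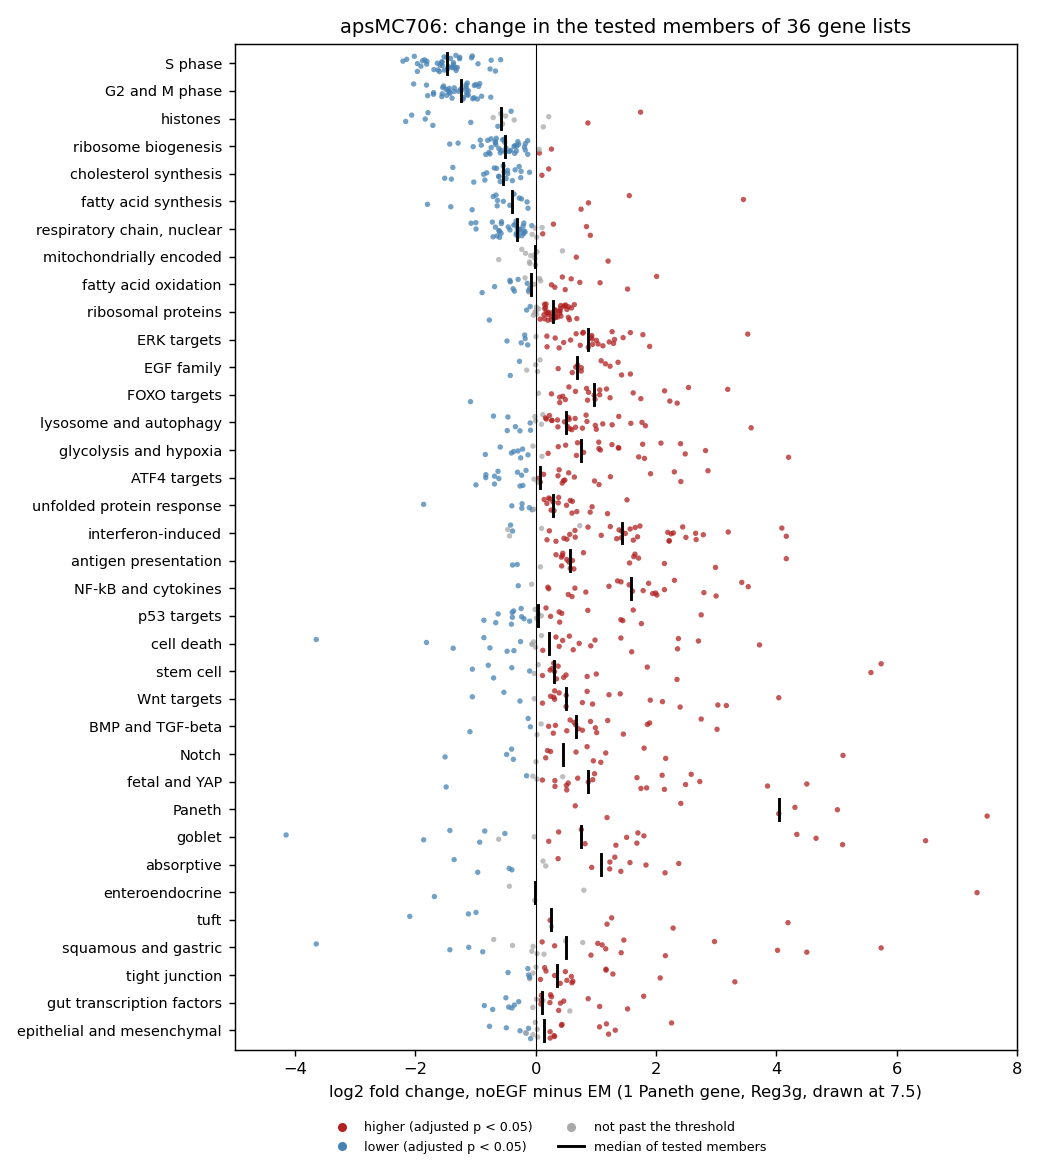
Log2 fold change (noEGF minus EM, x axis) of the tested members of 36 gene lists in apsMC706, 1 point per gene, with colour for genes higher or lower at an adjusted p under 0.05 and a bar at the median of each list. The S phase and G2 and M phase lists lie wholly below 0, ribosome biogenesis and cholesterol synthesis mostly below, and interferon, NF-kB, FOXO and Paneth lists mostly above.

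Cell type genes did not follow a single lineage. Of 22 Paneth markers, 7 had enough counts to test and all 7 rose. A gene seen only in noEGF can pass the filter on low counts, so this count supports nothing by itself. The 7 also hold Nupr1 and Cd24a, which are counted in the ATF4 and tuft lists too. Pla2g2a, an antibacterial phospholipase, went from 1.19 and 0.874 CPM to 33.9 and 33.1 CPM (5.01, SE 0.10), beside Mmp7, Itln1 and Reg3g above. The defining Paneth genes stayed near 0, with Lyz1 at 0 in EM and at 0 and 0.106 CPM in noEGF. Of 30 goblet and mucus genes, 21 were tested, 13 rose and 6 fell (median 0.76). Tff3, a secreted goblet peptide, rose, at 5.47 and 5.79 CPM against 19.4 and 17.2 CPM, as did the disulfide isomerase Agr2 at 70.0 and 63.3 CPM against 171 and 165 CPM and the membrane mucin Muc1 at 0.264 and 0.409 CPM against 8.31 and 8.80 CPM. The stress sensor Ern2 of mucus cells fell, from 5.42 and 4.26 CPM to 1.503 and 1.17 CPM, and the gastric mucin Muc5ac fell 2.68-fold. The largest fall of the list was that of Atoh1, the factor that sets the secretory fate, from 135 counts in both EM libraries to 10 and 5 counts in noEGF (-4.14, SE 0.27).

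Absorptive genes leaned upward, and endocrine and tuft genes were mixed. Of 32 absorptive markers, 16 were tested, 10 rose and 4 fell (median 1.08). At least 2-fold, 8 of the 16 rose and 1 fell, against 13.4% and 7.22% of all tested genes. The brush border protein Cdhr5 was at 4.99 and 4.83 CPM in EM and 12.5 and 13.7 CPM in noEGF. Vil1 (villin) was at 225 and 226 CPM against 166 and 167 CPM. Krt20, a marker of mature colonocytes, was at 0 in EM and at 0.0273 and 0.0265 CPM in noEGF. Of 5 tested endocrine markers 1 rose and 1 fell. Insm1, a factor of endocrine cells, fell from 85.3 and 83.9 CPM to 27.0 and 25.8 CPM, and the peptide hormone Pyy rose, from 0 counts in both EM libraries to 23 and 17 counts in noEGF, while the endocrine granule gene Chga was at 0 to 0.0547 CPM. Of 9 tested tuft markers 5 rose and 3 fell. The surface protein Cd24a rose from 42.8 and 41.7 CPM to 97.1 and 95.2 CPM and the keratin Krt18 rose 1.18-fold, and the largest fitted rise was that of Sh2d6, from 3 and 0 counts to 36 and 23 counts. Pyy and Sh2d6 passed the filter on low counts only through noEGF, so their place among the endocrine and tuft rises supports nothing by itself. The kinase Dclk1 (40.6 and 43.2 CPM to 19.4 and 19.3 CPM) and the cyclooxygenase Ptgs1 (4.09 and 4.64 CPM to 1.04 and 1.01 CPM) fell.

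Stem cell and Wnt genes mostly rose, with some members lower. Lgr5, the receptor that marks crypt stem cells (chr10:115450311-115587780), rose from 169 and 163 CPM to 291 and 311 CPM (0.86, SE 0.03), whereas Ascl2, the transcription factor of the same cells, fell from 35.6 and 35.5 CPM to 17.7 and 16.7 CPM (-1.05, SE 0.05). Of 22 tested stem cell markers, 15 rose and 5 fell (median 0.31). Of 23 tested Wnt genes, 19 rose and 3 fell (median 0.51), and secreted or membrane inhibitors were among the largest rises. Dkk2 went from 4.31 and 4.64 CPM to 41.2 and 39.2 CPM, Apcdd1 from 5.10 and 5.46 CPM to 28.7 and 27.0 CPM and the Dishevelled-binding Nkd1 from 85.2 and 91.5 CPM to 241 and 227 CPM. The Wnt factor Tcf7 fell 1.44-fold. The gastric gene Gkn3 went from 0.449 and 0.737 CPM to 31.2 and 32.2 CPM.

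Other signalling lists moved mostly upward. Of 16 tested Notch genes, 11 rose and 4 fell, with the effector Hes1 at 37.0 and 34.97 CPM in EM and 123 and 128 CPM in noEGF, the ligand Jag1 at 42.5 and 43.2 CPM against 84.7 and 81.9 CPM and the receptor Notch3 at 0.211 and 0.191 CPM against 6.75 and 7.34 CPM. Lfng, a glycosyltransferase that tunes Notch receptors, fell 2.84-fold. Of 23 tested BMP and TGF-beta genes, 18 rose and 3 fell (1 with upper-quartile factors). The ligand Bmp2 was at 32.3 and 31.1 CPM against 114 and 115 CPM and its antagonist Chrd at 3.99 and 3.33 CPM against 13.9 and 13.3 CPM, while the BMP target Id2 fell from 131 and 134 CPM to 62.0 and 62.6 CPM. Of 25 tested fetal and YAP genes, 20 rose and 2 fell (median 0.88). The YAP targets Ccn2 (69.1 and 67.5 CPM to 434 and 386 CPM) and Ankrd1 (0.872 and 0.737 CPM to 12.6 and 10.8 CPM) rose, as did Sprr1a, of the cornified envelope (0.925 and 0.901 CPM to 20.1 and 21.5 CPM).

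Of 22 tested tight junction genes, 15 rose and 4 fell (median 0.36), and 1 fell with upper-quartile factors. The scaffold Tjp1 rose and Ocln (occludin) fell, both by small amounts (0.17, SE 0.02, and -0.13, SE 0.03). The call for Tjp1 was lost with all 8 libraries (adjusted p = 0.214, edgeR) and that for Ocln with upper-quartile factors (adjusted p = 0.285, edgeR). Of 10 tested claudins, the barrier proteins of tight junctions, 9 rose and 0 fell, with Cldn4 at 44.4 and 41.4 CPM in EM and 182 and 178 CPM in noEGF. Lamb3, a laminin chain that anchors epithelium to its basement membrane, rose from 82.4 and 81.2 CPM to 186 and 184 CPM. Of 24 tested transcription factors of the gut epithelium, 13 rose and 7 fell (median 0.11). Of 20 tested Hox genes, 12 fell and 1 rose (median -0.34), among them Hoxb13 of the distal colon (146 and 143 CPM to 101 and 105 CPM), and the pioneer factor Foxa1 fell from 337 and 330 CPM to 203 and 204 CPM. The leucine zipper factor Maf rose from 21.4 and 21.2 CPM to 74.6 and 73.4 CPM.

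The 24 lead genes were set beside the other APS line of the series, CTO19 (labelled male, same knockouts, media and days), in a model of the 4 group means over 8 libraries. The difference of the responses passed the threshold for 9366 of 16719 genes (56.0%), edgeR. It passed for 20 of the 24, and in all 20 the change was larger in apsMC706. These genes were chosen for their change in apsMC706, which also enters the difference, so the direction of that count was built in. In 5 of the 20 the fitted log2 fold change in CTO19 had the opposite sign, in Hmgn2 at a value close to 0 (0.06). Ngfr was at 130 and 141 CPM in CTO19 with EGF and 44.6 and 44.0 CPM without it, Ly6c1 at 461 and 495 CPM against 300.2 and 271 CPM, Ly6c2 at 171 and 185 CPM against 105 and 97.2 CPM, and Acsm3 at 5.38 and 5.34 CPM against 14.0 and 10.4 CPM. The noEGF levels of Ngfr in the 2 lines thus lay close to each other, and their EM levels far apart. Alb and Mug1 were at 0 to 0.0269 CPM in CTO19, and Muc13 at 0.0281 to 1.12 CPM, so a fold in that line has no meaning for them. Itln1, among the 20, was also low in CTO19, at 0.318 and 0.450 CPM with EGF and 0.538 and 1.66 CPM without it. Its fold in that line is therefore uncertain. The difference was not past the threshold for Fkbp5 (adjusted p = 0.133), where the CTO19 noEGF libraries stood at 64.9 and 34.7 CPM. It passed when replicate 1 of them was left out (adjusted p = 3.97e-05) and when replicate 2 was (1.28e-11). For Itln1 the difference passed with an adjusted p of 0.0465, and in 6 of the 8 fits that each left out 1 library it did not (0.0524 to 0.314).

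**Figure D5:**
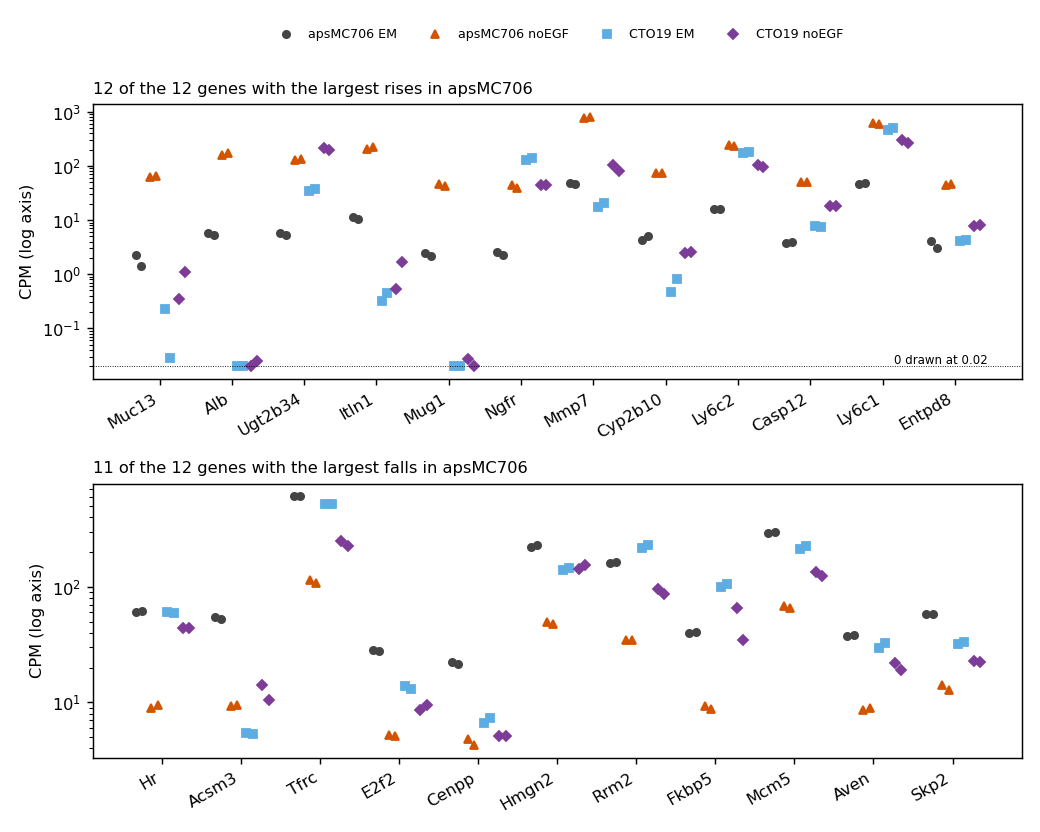
Levels of the 12 genes with the largest rises (upper panel) and of 11 of the 12 with the largest falls (lower panel) in apsMC706, in each of the 2 libraries per line and medium, in CPM on a log axis. A level of 0 is drawn at 0.02 CPM. Ngfr, Ly6c1 and Ly6c2 are higher in noEGF in apsMC706 and lower in CTO19, and Tfrc, Rrm2 and Mcm5 are lower in both lines.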

How the data were processed

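Poly(A)-selected RNA of the apsMC706 organoids was sequenced in 4 libraries, 2 per medium. Values in the deposited table are raw counts by Ensembl identifier, which the authors made from reads aligned with STAR 2.7.0a to mm10, per the submitters' processing notes. The counting program, strand setting and annotation were not given in the sources used here. Per the labels' protocols, the library kit does not mark strand and 8 cycles of amplification were used, so overlapping genes share counts. GENCODE M21 held 32680 of the 32728 identifiers and gave names, positions and exon lengths. In all, 22354 genes had a count in an apsMC706 library. Overlaps with other genes were taken from the same annotation.

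Genes were kept with filterByExpr (14981, holding 99.96% to 99.97% of counts), scaled by TMM factors and tested with edgeR 4.0.16 in R 4.3.3 (quasi-likelihood, robust, two-sided, Benjamini-Hochberg over all tested genes). The fit had 2 residual degrees of freedom. The difference between lines used all 8 libraries (16719 genes, 4 residual degrees of freedom). CPM are counts per 1000000 with the TMM factor, RPKM are CPM per kilobase of exon, SE is the standard error on the log2 scale, and folds against 0 counts use a floor of 3 counts per library (0.0793 to 0.0820 CPM), which covers counting error only. Folds are back-transformed from the fitted log2 fold change. Voom came from limma 3.58.1 and the Wald test from DESeq2 1.42.0.

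Genes were named by a rule. It took the 12 largest changes per direction among called genes with an average log2 CPM not under 3, a named symbol and libraries that did not overlap, and the 8 largest gains and losses of CPM. It also took 6 genes per direction with 0 counts in 1 medium, up to 4 called members per list and direction, 2 uncalled members per list and a fixed set of EGF, cell type and cell cycle genes. Marker genes at or near 0, Col3a1, Tjp1, Ocln, Pyy, Atoh1 and Sh2d6 (after their values were seen), Kif11, Hmgcs1, Bcl2l11 and Cxcl10 (for their promoters) were named outside it. The members, the 41 gene lists and the rule were chosen with earlier results of these data known. The fits were tested on simulated counts with changes planted in a small part of the genes. In the data most tested genes passed the threshold, so the simulation does not check the scaling for such data. A few genes that the rule took are not reported here.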

Additional observations from a re-analysis of the deposited data

Results flagged for a closer look

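The difference of the log2 fold changes between the lines (CTO19 minus apsMC706), tested with an interaction term in edgeR, passed an adjusted p of 0.05 for 20 of the 24 lead genes, of which 19 are given. Among rises it was -5.73 for Ngfr, -4.73 for Ly6c2, -4.43 for Ly6c1, -2.77 for Itln1, -2.70 for Entpd8, -2.43 for Casp12, -2.03 for Ugt2b34, -1.99 for Cyp2b10 and -1.76 for Mmp7. Among falls it was 3.69 for Acsm3, 2.31 for Hr, 2.27 for Hmgn2, 1.89 for E2f2, 1.81 for Cenpp, 1.57 for Skp2, 1.52 for Aven, 1.38 for Mcm5, 1.33 for Tfrc and 0.91 for Rrm2. These genes were picked for their change in apsMC706, so a smaller change in CTO19 was favoured by the choice. Itln1 was at 0.318 to 1.66 CPM in CTO19, so its difference is uncertain. With 2 libraries per group, no test for a library standing apart was made.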

How the results depend on the processing

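The count of called genes was 11994, and 4581 with a test against a fold of 1.5 (2630 higher, 1951 lower), which asks for more than a difference from 0. It was 10402 to 12356 under the other alternatives tried with all 4 libraries, and 11428 to 11531 with 1 library left out, where the lone library is assumed to vary like the other medium. No gene called in the main analysis and in an alternative changed sign. With upper-quartile factors, 57.5% of called genes were higher against 50.7%, and the median of all genes was 0.10. A replicate block gave 11939 calls for the response and 9371 for the difference of the responses (main 9366), and 6 lower mitochondrially encoded genes in place of 0. The replicate differences of the media correlated at -0.00596 over all tested genes and 0.0443 over those with an average log2 CPM of at least 3, so the numbers were not taken to pair the libraries, although in both media mitochondrial genes took more of the counts in replicate 1. The difference of the responses gave 7588 to 9632 calls under its alternatives. Of the genes named, 4 turned sign: Cdh1 with upper-quartile factors (log2 fold change 0.0054), Btc without EM replicate 1 (-0.010, up to 0.059 with another library left out), Trp53 without EM replicate 2 (-0.11) and Epgn, with 20 and 18 counts per medium, with limma-voom (0.12) and on leaving out 1 library (-0.85 to 1.16), none of them called where its sign turned, with causes not tested. With upper-quartile factors Btc was called higher (0.12, adjusted p = 0.00402, edgeR). Trp53 passed without EM replicate 1 (0.21, adjusted p = 0.0170). Of 3258 values for named genes, 66 lost and 14 gained a call, and 109 of 1312 list counts moved by over 1.5 times, 51 of these with the fold test. The effect of depth was not tested, and levels under 0.0793 to 0.0820 CPM lie below the floor of 3 counts. Medium and days in culture cannot be told apart.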

Other observations

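Structural gene families, some of whose members are in the lists above, also moved. Of the 5 tested alpha tubulins whose symbols start with Tuba, 4 fell and 1 rose, and Tuba1c went from 1233 and 1271 CPM in EM to 557 and 560.4 CPM in noEGF. Kinesins divided, with 13 of 36 higher and 20 lower, and the lower ones include Kif11, Kif20a and others of the G2 and M phase list. Of 15 tested collagen genes, 10 rose and 2 fell. The summed level of all 44 collagen genes changed little, from 459 and 463 CPM in EM to 480 and 452 CPM in noEGF. All 5 tested integrin beta chains rose. Of 17 tested replication-dependent histones, 8 fell and 2 rose, with Hist1h2ag at 20.8 and 22.6 CPM against 5.36 and 5.06 CPM. Poly(A) selection keeps only part of the transcripts of such histones, and they are close copies.

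By gene type, 103 of 189 tested lincRNA genes rose and 36 fell (median log2 fold change 0.61), against 5290 higher and 5137 lower of 12589 protein-coding genes (0.01). Among 1570 processed pseudogenes, 133 were at least 2-fold lower and 34 at least 2-fold higher. Pseudogenes share sequence with their parent genes, so their counts are uncertain.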
